A study of Homo sapiens with 6 samples.

Results

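The 8 subunits of the cytosolic chaperonin CCT (also called TRiC), encoded by TCP1, CCT2, CCT3, CCT4, CCT5, CCT6A, CCT7 and CCT8, and PFDN2 and PFDN4, which encode a pair of subunits of its helper complex prefoldin, were followed in the TNBC cell line MDA-MB-231 with and without BRL-50481. The genes were taken by symbol, and all 10 were present among the 15651 genes of the expression table. All 10 also passed the filter on low values (at least 3 libraries with 4 or more normalized counts), as did 15246 genes in all.

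MDA-MB-231 is an established human cell line of triple-negative breast cancer (TNBC), and BRL-50481 is an inhibitor of the phosphodiesterase PDE7A, an enzyme that breaks down cyclic AMP, and the study asked which transcripts differ when it is inhibited. RNA was sequenced from 3 cultures given the solvent DMSO and 3 given BRL-50481, all in DMEM with fetal bovine serum and without any genetic change made for the experiment. Treatment was with 50 μM for 72 h by the paper and by the labels' protocol, while the treatment tag of the same samples gives 5 μM and 48 h. By the labels mRNA was captured on oligo-dT beads, but the series text speaks of removing ribosomal RNA instead, and which was done cannot be told here.

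CCT is built from stacked rings in which every subunit occupies a fixed place, and it uses ATP to fold proteins inside its cavity. Actin and tubulin depend on it, as do many proteins with WD40 repeats. Prefoldin is a jellyfish-shaped complex of alpha-type subunits (VBP1 and PFDN5) and beta-type subunits (PFDN1, PFDN2, PFDN4 and PFDN6) that hands unfolded actin and tubulin to CCT. Because each ring holds every CCT subunit in equal number, the transcripts of the subunits can be set against an equal share.

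Transcripts of all 8 ring subunits fell with BRL-50481, with log2 fold changes from -0.75 (CCT6A and CCT7) to -0.14 (CCT8). The call of CCT8 held in only 11 of 15 other fits. At the same threshold, 29.8% of all genes tested were lower, and 46.5% of the 579 genes at least as abundant as the lowest ring subunit. The summed normalized count of the ring went from 117227 ± 3409 in the DMSO libraries to 84436 ± 1299 in the treated ones (SD, n = 3), which is 72.0% of the DMSO level. PFDN2 fell by 0.82 on the log2 scale, whereas PFDN4 differed by -0.11 and did not pass the test. The ring subunits did not fall by equal amounts, so that the make-up of the ring transcripts differed between the groups. Such differences were common. Log2 ratios did not overlap between the groups in 92.9% of ring pairs and in 81.3% of pairs among those 579 genes. The log2 fold changes of the ring had an SD of 0.23, beside 0.45 for the 579 genes.

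The promoter windows of the ring genes were read because these genes moved in the same direction. The windows run from 250 bases before to 50 bases after a transcript start (RefSeq, GRCh38.p14), and 8 of the 10 genes had at least one, the exceptions being CCT6A and PFDN2. Motifs were searched on both strands and counted per gene over the 10958 tested genes with a window, called all genes in this paragraph. The 3-unit heat shock element (GAA, TTC and GAA, or TTC, GAA and TTC, with any 2 bases between units) was present in 0 of the 8 genes and in 0.529% of all genes. Its 2-unit form (GAANNTTC or TTCNNGAA), whose matches include those inside the longer form, was present in 3 of the 8, namely TCP1, CCT2 and CCT4, and in 14% of all genes. The E2F motif (TTTCGCGC, TTTGGCGC or TTTCCCGC) was present in TCP1 alone among the 8 and in 5.32% of all genes. The E-box CACGTG (12.1% of all genes) and the cAMP response element TGACGTCA (3.61% of all genes) were present in 0 of the 8. A match is a match of letters and not a site shown to be bound. The stretches around the matches upstream of a start are shown for TCP1 and CCT2 because they are the places where ring genes hold a searched motif. In each, capitals mark the fixed letters of the motif. The TCP1 stretches are chr6:159789815-159789844 and chr6:159789765-159789794 on the minus strand, with motifs 231 to 224 and 181 to 174 bases before the start. The CCT2 stretch is chr12:69585789-69585818 on the plus strand, with the motif 89 to 82 bases before one of its starts. The CCT4 match lies 38 to 45 bases after the start.
TCP1, 2-unit heat shock element: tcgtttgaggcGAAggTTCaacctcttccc
TCP1, E2F motif: ccgttctccgcTTTCGCGCccttcccatcg
CCT2, 2-unit heat shock element: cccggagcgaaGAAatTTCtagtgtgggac

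Values below are normalized counts, the reads of a gene divided by a size factor of the library, which compare 1 gene between libraries. They are relative to the other transcripts of a library, so the number of cells and the amount of RNA per cell cannot be told apart. Libraries held 30750573 to 33446984 reads on genes, and the ring took 0.359% of all normalized counts in DMSO against 0.272% in BRL-50481. Log2 values of the normalized count with 1 added were compared between the groups with limma over all 15246 genes, and p-values were adjusted by the Benjamini-Hochberg method. At an adjusted p-value under 0.05, 29.8% of all genes tested were lower and 28.9% were higher, so a call in either direction was common (58.7%). DMSO replicate 1 differed most from its group, its read counts giving a chi-square of 13.7 and 22.1 for each degree of freedom against the other DMSO libraries, where the other pairs of replicates gave 2.63 to 3.99. Among markers of the line, VIM, CD44, CAV1 and AXL had mean normalized counts of 58840.4, 31414, 7965 and 45015 in DMSO, PGR had at most 7.75 in any library, and EPCAM had 764. Of markers of other cell types, PECAM1 had a mean of 357.5 and COL1A1 of 337 in DMSO, and PTPRC and DES, like the line marker ESR1, were not analysed here. The series text speaks of biological replicates, and 3 against 3 libraries allow an exact permutation p of 0.1 at the smallest.

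Within a ring, TCP1, CCT4, CCT2 and CCT5 lie next to each other and are the subunits known for high affinity for ATP. All 4 were lower in every BRL-50481 library than in any DMSO library. The same held for all 8 ring subunits and for 32.3% of all genes tested. TCP1 (chromosome 6, 159778498 to 159789703 of hg38), which encodes the alpha subunit after which the complex was first named, had 12457, 13206 and 13106 normalized counts in DMSO against 8543, 8286 and 8481 in BRL-50481. The groups were far apart, with DMSO replicate 1 the lowest of the controls. Its level in BRL-50481 was 65.3% of that in DMSO, a log2 fold change of -0.61 (SE 0.0447, limma adjusted p = 1.43e-07). The exons of TCP1 overlap SNORA20 and SNORA29 on the same strand and ACAT2 on the opposite strand.

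CCT2 (chromosome 12, 69585426 to 69601570), the beta subunit, had 10826, 11160.3 and 10918 normalized counts in DMSO against 8004, 7734 and 8076 in BRL-50481. The libraries of each group lay close together and the groups did not overlap. The log2 fold change was -0.47 (SE 0.0438, limma adjusted p = 1.34e-06), or 72.4% of the DMSO level. CCT2 was the subunit nearest to the mean change of the ring.

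CCT4 (chromosome 2, 61868085 to 61888671), the delta subunit, had 12577, 13871 and 13759 normalized counts in DMSO against 10516, 10423 and 11023 in BRL-50481. DMSO replicate 1 lay below the other controls but above every treated library. The log2 fold change was -0.33 (SE 0.0503, limma adjusted p = 8.95e-05). CCT5 (chromosome 5, 10249929 to 10266389), the epsilon subunit, had 18526, 19758 and 19526 normalized counts in DMSO against 16266, 16116 and 17039 in BRL-50481. The gap between the groups was narrower than for the preceding subunits, yet they did not overlap. The log2 fold change of CCT5 was -0.23 (SE 0.0457, limma adjusted p = 0.000874).

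The other arc of the ring is made of CCT3, CCT6A, CCT8 and CCT7, the subunits known for low affinity for ATP. It held both the largest and the smallest changes of the ring. CCT3 (chromosome 1, 156308968 to 156367873), the gamma subunit, had 13251, 14201 and 13878 normalized counts in DMSO against 9284, 9491 and 9342 in BRL-50481. All treated libraries were well below the controls. The log2 fold change was -0.56 (SE 0.0448, limma adjusted p = 3.64e-07), or 68.0% of the DMSO level.

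CCT6A (chromosome 7, 56051685 to 56063989), the zeta subunit, had 17415, 17756 and 17843 normalized counts in DMSO against 10742, 10271 and 10465 in BRL-50481. The 3 libraries of each group were within a narrow range, and the groups were far apart. The level was 59.4% of that in DMSO (log2 fold change -0.75, SE 0.0427, limma adjusted p = 1.88e-08). The annotation lists 4 pseudogenes named for CCT6A, and reads shared with them cannot be assigned with certainty. CCT7 (chromosome 2, 73233420 to 73253021), the eta subunit, had 16871, 18176 and 17620.3 normalized counts in DMSO against 10153, 10557 and 10650.4 in BRL-50481. The groups were as far apart as those of CCT6A. The level was 59.5% of that in DMSO (log2 fold change -0.75, SE 0.0460, limma adjusted p = 3.77e-08).

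CCT8 (chromosome 21, 29055805 to 29073797), the theta subunit, lies between CCT6A and CCT7 in the ring. It had 11437, 11672 and 11869 normalized counts in DMSO against 10632, 10433 and 10781 in BRL-50481. The groups did not overlap, but the gap between the lowest control and the highest treated library was small. The level was 91.0% of that in DMSO (log2 fold change -0.14, SE 0.0430, limma adjusted p = 0.0155). This call was lost without DMSO replicate 3 (limma adjusted p = 0.081) and without BRL-50481 replicate 2 (0.0706). It was also lost with quantile normalization (log2 fold change -0.08, limma adjusted p = 0.124) and with median centring (-0.11, 0.0519). The other 7 subunits and PFDN2 kept their calls in all 15 other fits.

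**Figure D1:**
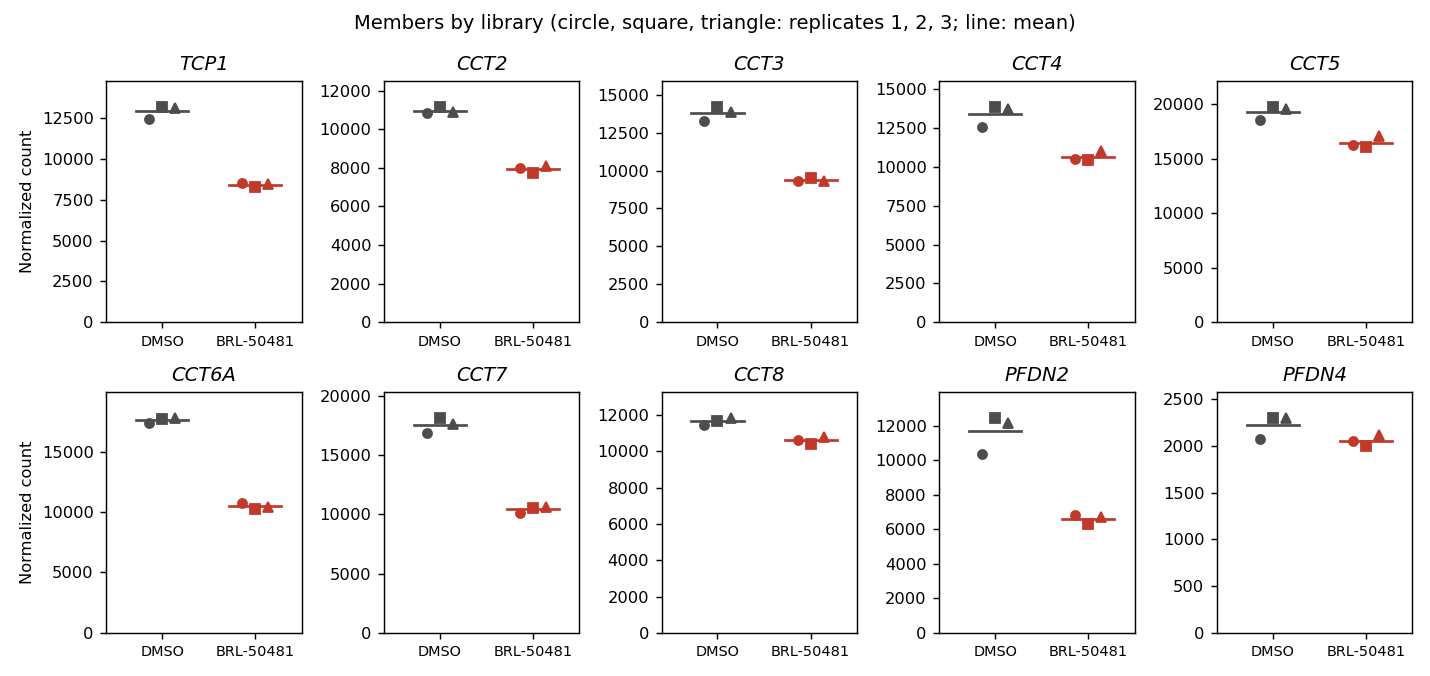
Normalized count (vertical axis, from 0, a separate scale for each gene) of the 10 genes in the 3 DMSO and 3 BRL-50481 libraries; circle, square and triangle are replicates 1, 2 and 3, and lines are means. The groups are apart for all but PFDN4, and CCT8 has the narrowest gap among the ring subunits.

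The plot of normalized counts by library shows that DMSO replicate 1 was the lowest control in every gene, most clearly in PFDN2. Of the 10 genes, 9 had all BRL-50481 libraries below all DMSO libraries, where 32.3% of all genes tested did, 31.9% had them all above, and 64.2% showed no overlap in either direction. The median log2 fold change of the 8 ring subunits was -0.51, beside 0.01 over all genes tested. Ring transcripts are abundant, and among the 579 genes with at least the mean normalized count of the lowest subunit, 46.5% were lower and the median was -0.09. The log2 fold changes of the 8 subunits had an SD of 0.23, smaller than the 0.45 of those 579 genes and close to the 0.25 of the 14 subunits of the 20S proteasome core.

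The stoichiometry of the ring transcripts was compared on a scale per kb of the canonical transcript. The order of the subunits within a group depended on this division by length. Undivided means put CCT5 on top under either treatment (DMSO 19270, BRL-50481 16474), where CCT7 had 17556 and 10453. The lowest was then CCT2 (10968 and 7938). The orders below hold for the scale per kb only. In DMSO, CCT7 was the most abundant subunit with 9505 ± 355 normalized counts per kb (SD, n = 3). CCT3 (6968 ± 244) and CCT6A (6839 ± 87.4) followed and overlapped each other in their libraries. CCT8 came next with 6289 ± 117 per kb, apart from both neighbours in the order. CCT5 (5852 ± 199), CCT2 (5725 ± 90.1), CCT4 (5641 ± 302) and TCP1 (5494 ± 173) formed the lower end, where each overlapped the next.

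On the same scale, the order among treated libraries was another one. CCT8 (5726 ± 94.2 normalized counts per kb) and CCT7 (5659.7 ± 143) were now the highest and overlapped each other. CCT5 (5003 ± 150.4), CCT3 (4741 ± 54.2) and CCT4 (4484 ± 136) each stood apart from the next in the order. CCT6A, among the highest in DMSO, had 4061 ± 91.5 per kb and overlapped CCT2 (4143 ± 94.2). TCP1 was the lowest in both groups and had 3587 ± 57.1 per kb in BRL-50481. The ratio of the highest to the lowest subunit was 1.73 ± 0.0207 in DMSO and 1.60 ± 0.0229 in BRL-50481. With no division by length, the SD of the log2 levels over the 8 subunits was 0.296, 0.305 and 0.301 in the controls and 0.309, 0.316 and 0.330 in the treated libraries, all higher, so the direction in which the spread differed depended on the scale.

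As a share of the summed ring signal per kb, where equal shares would be 12.5%, CCT8 had 12.2%, 11.8% and 12.1% in DMSO and 15.4%, 15.2% and 15.3% in BRL-50481. On this scale CCT8 moved from slightly below an equal share to the largest share of the ring in 2 of the 3 treated libraries. CCT7 moved the other way, with 18.0%, 18.4% and 18.0% in DMSO and 14.8%, 15.5% and 15.2% in BRL-50481. CCT6A had 13.1% ± 0.233 in DMSO and 10.9% ± 0.264 in BRL-50481, going from above to below an equal share. Positions against an equal share rest on the transcript lengths used, and other lengths were not tested.

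CCT5 gained share, from 11.2% ± 0.0602 to 13.4% ± 0.214, a difference of 2.19 points. CCT4 differed by 1.21 points, from 10.8% ± 0.277 to 12.0% ± 0.195. TCP1 (-0.912 points) and CCT3 (-0.642 points) had smaller shares in BRL-50481. The share of CCT2 differed by only 0.130 points and its groups overlapped (exact two-sided permutation p = 0.4). For the other 7 subunits the groups were apart, with an exact two-sided permutation p of 0.1, the smallest that 3 against 3 libraries can give (0.114 adjusted over the 8). The directions were the same when counts were not divided by length.

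**Figure D2:**
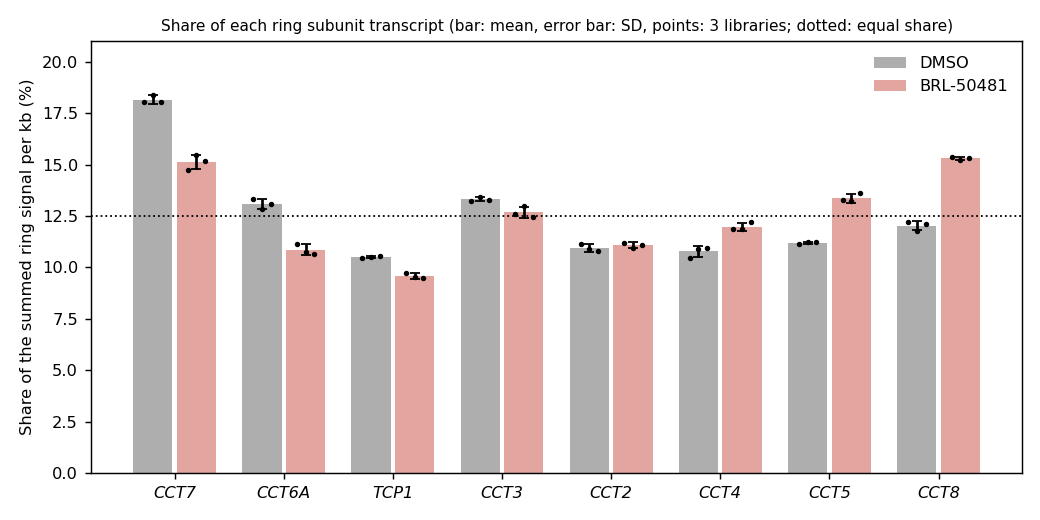
Share (%, vertical axis from 0) of each ring subunit in the summed normalized counts per kb of the 8 subunits, in DMSO (grey) and BRL-50481 (red); bars are means, error bars SD, points the 3 libraries, and the dotted line an equal share of 12.5%. CCT7 and CCT6A stand at 18.2% and 13.1% in DMSO and at 15.1% and 10.9% in BRL-50481, while CCT8 goes from 12.0% to 15.3%.

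The plot of ring shares is ordered by change, from subunits that lost share to those that gained. A test of the same question that does not use transcript length set every library relative to the mean log2 level of its 8 ring subunits and repeated the limma fit over all genes, a scale on which 74.1% of all genes passed in either direction, 67.6% higher and 6.43% lower, since the scale itself moves with the ring. On this scale CCT6A (difference -0.27, SE 0.0434, limma adjusted p = 0.000121) and CCT7 (-0.27, SE 0.0433, adjusted p = 0.000136) fell more than the ring mean. CCT8 (0.34, SE 0.0427, limma adjusted p = 1.69e-05) and CCT5 (0.25, SE 0.0413, adjusted p = 0.000153) fell less. These 4 calls held without any 1 library. The mean is taken over the same 8 subunits, so their differences must balance and their calls are not independent of each other.

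TCP1 fell more than the ring mean (difference -0.14, SE 0.0425, limma adjusted p = 0.012), a call lost without DMSO replicate 3 (adjusted p = 0.0513) or BRL-50481 replicate 3 (0.0556). CCT4 fell less than the ring mean (difference 0.15, SE 0.0442, limma adjusted p = 0.00938), a call lost without BRL-50481 replicate 3 (adjusted p = 0.0526). CCT2 (0.01, SE 0.0437, limma adjusted p = 0.815) and CCT3 (-0.08, SE 0.0433, adjusted p = 0.128) did not pass.

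Of the 28 pairs of ring subunits, 26 (92.9%) had log2 ratios that did not overlap between the groups, beside 81.3% of the 167331 pairs among the 579 genes of at least the same abundance. The share of ring pairs was therefore not far from that of other abundant genes. The exceptions were CCT2 with CCT3 and CCT6A with CCT7. The log2 ratio of CCT6A over CCT7 was 0.010 ± 0.0404 in DMSO and 0.0055 ± 0.0661 in BRL-50481. The pair with the largest change was CCT6A over CCT8, neighbours in the ring, whose log2 ratio went from 0.60 ± 0.0103 to -0.02 ± 0.0293.

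Prefoldin showed unequal changes among its subunits. PFDN2 (chromosome 1, 161100556 to 161118055), a beta-type subunit that also belongs to the prefoldin-like complex around URI1, had 10382, 12466 and 12142 normalized counts in DMSO against 6804, 6312 and 6706 in BRL-50481. DMSO replicate 1 lay well below the other controls and still far above the treated libraries. The level was 56.6% of that in DMSO (log2 fold change -0.82, SE 0.0648, limma adjusted p = 3.15e-07), and without any 1 library the log2 fold change was between -0.90 and -0.77. Of all genes tested, 5.52% had a lower log2 fold change than PFDN2.

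PFDN4 (chromosome 20, 54208087 to 54228052), another beta-type subunit, had 2069.8, 2298 and 2301 normalized counts in DMSO against 2049, 1999 and 2111 in BRL-50481. The groups overlapped, because DMSO replicate 1 lay among the treated libraries. The log2 fold change was -0.11 (SE 0.0589, limma adjusted p = 0.115). Without DMSO replicate 1 it was -0.16 and passed (limma adjusted p = 0.00348), and with a correction for transcript length and GC content it was -0.11 and passed (0.0394). The ratio of PFDN2 to PFDN4 normalized counts was 5.24 ± 0.207 in DMSO and 3.22 ± 0.0900 in BRL-50481.

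Of the remaining 4 prefoldin subunits, 1 rose, 1 fell and 2 did not pass, with a median log2 fold change of -0.05. This split was near that of all genes tested, of which 28.9% were higher and 29.8% lower. PFDN1, a beta-type subunit, had 2306, 2717 and 2609 normalized counts in DMSO against 2999, 3048 and 2972 in BRL-50481, with every treated library above the controls (log2 fold change 0.24, SE 0.0624, limma adjusted p = 0.00443). PFDN6, also of the beta type, had 2028, 2316 and 2148 in DMSO and 1496, 1502 and 1569 in BRL-50481, with every treated library below (log2 fold change -0.51, SE 0.0615, limma adjusted p = 1.29e-05).

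The alpha-type subunits did not pass. VBP1 had a log2 fold change of 0.01 (SE 0.0562, limma adjusted p = 0.848), and its sign turned without BRL-50481 replicate 1 (-0.03). PFDN5 had 2655, 3209 and 3164 normalized counts in DMSO against 2754, 2626 and 2897 in BRL-50481 (log2 fold change -0.12, SE 0.0719, limma adjusted p = 0.165). Without DMSO replicate 1 it passed, with -0.21 (limma adjusted p = 0.000151), and the count of lower subunits among these 4 was then 2. Relative to the ring mean, PFDN1 (0.72), VBP1 (0.49), PFDN4 (0.37) and PFDN5 (0.36) were higher in BRL-50481 (limma adjusted p between 5e-07 and 0.000313). PFDN2 was lower (-0.34, limma adjusted p = 0.000196), and PFDN6 did not pass (-0.03, adjusted p = 0.683). On that scale 67.6% of all genes were higher and 6.43% lower. The 4 higher of 6 prefoldin subunits were thus near the share of all genes.

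**Figure D3:**
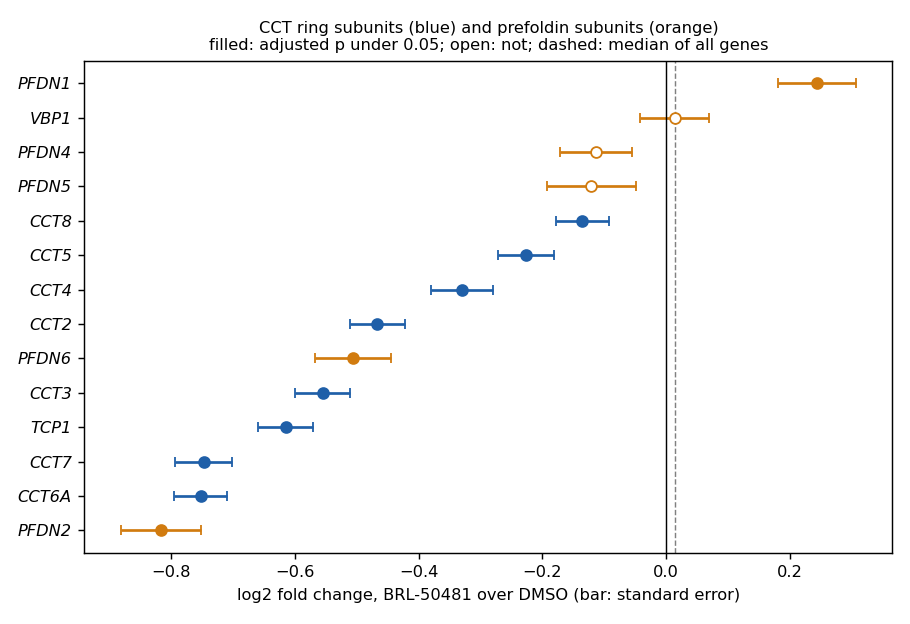
Log2 fold change of BRL-50481 over DMSO (horizontal axis) with its standard error for the 8 ring subunits (blue) and the 6 prefoldin subunits (orange); filled points passed an adjusted p of 0.05, open points did not, and the dashed line is the median of all genes, 0.01. Ring subunits run from -0.75 to -0.14, and prefoldin subunits from -0.82 (PFDN2) to 0.24 (PFDN1).

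The plot of log2 fold changes places all ring subunits to the left of the median of all genes and prefoldin subunits on both sides. The genes whose profiles over the 6 libraries were nearest to the mean profile of the ring, among 11445 genes averaging 100 or more normalized counts, were NUDT9, CYR61, LINC00998, TAF11 and TERF2IP. Their distances, the square root of the summed squared differences of centred log2 values, were 0.0284, 0.0307, 0.0311, 0.0391 and 0.0400, where that of CCT2 was 0.0467 and that of CCT8 0.422. All 5 had log2 fold changes between -0.48 and -0.47.

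Relatives and partners of the ring were read in the same fit. CCT6B, the close paralog of CCT6A that is known from testis, had 23.9 ± 2.20 normalized counts in DMSO against 56.4 ± 3.06 in BRL-50481 (SD, n = 3). On the scale per kb, CCT6B had a mean of 12.9 in DMSO where CCT6A had 6839. CCT6B rose while CCT6A fell (log2 fold change 1.21, SE 0.207, limma adjusted p = 0.000243). Its exons overlap LIG3 on the opposite strand. Of this gene and 3 chaperonin-like genes linked to Bardet-Biedl syndrome, 1 rose, 1 fell and 2 did not pass. All genes tested were split alike, with 28.9% higher and 29.8% lower. On the log2 scale MKKS gave -0.14 (limma adjusted p = 0.0421, a call that held without DMSO replicate 1 but was lost without any other single library, with 0.0871 to 0.168, and with quantile normalization, 0.207, median centring, 0.102, or no trend, 0.102), BBS10 0.01 (0.858) and BBS12 0.0034 (0.977).

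All 3 phosducin-like proteins, which bind CCT and assist or hinder folding of its clients, fell (median -0.35). The share of all genes tested that fell was 29.8%. TXNDC9 had a log2 fold change of -0.42 (SE 0.0545, limma adjusted p = 2.08e-05), PDCL -0.23 (SE 0.0643, adjusted p = 0.00798) and PDCL3 -0.35 (SE 0.109, adjusted p = 0.0152). The call of PDCL3 was lost without DMSO replicate 2 (adjusted p = 0.068) or BRL-50481 replicate 1 (0.0719). Among 9 genes of the prefoldin-like complex and its R2TP partners, 4 fell, 0 rose and 5 did not pass, with a median of -0.11. They included URI1, its scaffold (-0.41, SE 0.0549, limma adjusted p = 3.01e-05), and POLR2E, a subunit shared by the RNA polymerases (-0.30, SE 0.0714, adjusted p = 0.00268), whereas the ATPase RUVBL2 gave -0.02 (adjusted p = 0.8).

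Transcripts of proteins that CCT folds did not share a direction, and neither did all genes tested (28.9% higher, 29.8% lower). Of 13 actin and tubulin genes, 2 rose, 7 fell and 4 did not pass, with a median of -0.20. Cytoplasmic actins rose, with ACTB at 62851 ± 2531 normalized counts in DMSO against 75701 ± 2274 in BRL-50481 (log2 fold change 0.27, SE 0.0467, limma adjusted p = 0.000266) and ACTG1 at 0.29 (SE 0.0486, adjusted p = 0.000202). TUBA4A, an alpha-tubulin, fell by 1.08 on the log2 scale (SE 0.0765, limma adjusted p = 1.18e-07). TUBB, a beta-tubulin, gave -0.09 (limma adjusted p = 0.127), and its sign depended on the scaling, with 0.16 (adjusted p = 0.00222) after quantile normalization but -0.11 (0.00658) without DMSO replicate 1 and -0.09 (0.00548) with the length and GC correction.

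Of 14 other known clients, 4 rose, 3 fell and 7 did not pass, and 5 fell when DMSO replicate 1 was left out. With all libraries, those counts were not far from the shares of all genes tested, 28.9% higher and 29.8% lower. PLK1, a mitotic kinase, rose by 1.33 (SE 0.0708, limma adjusted p = 1.12e-08), and WRAP53, a WD40 protein needed for telomerase assembly, fell by 0.92 (SE 0.0848, adjusted p = 1.1e-06) on the log2 scale. The G protein beta subunits GNB1 (0.04, limma adjusted p = 0.391) and GNB2 (-0.12, 0.16) did not pass, although GNB1 passed with quantile normalization (0.11, 0.0313) and GNB2 without DMSO replicate 1 (-0.19, 0.000204). STAT3 gave 0.13 (limma adjusted p = 0.057) and passed without DMSO replicate 1 (0.20, 2.12e-05), with quantile normalization (0.18, 0.0142) and with median centring (0.16, 0.0249).

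The 6 genes of the tubulin cofactor pathway, which act on tubulin after CCT, were split, with 2 higher, 3 lower and 1 not called (median -0.17). Among all genes tested, 28.9% were higher and 29.8% lower. TBCD rose by 0.86 on the log2 scale (SE 0.0563, limma adjusted p = 6.11e-08) and TBCE by 0.27 (SE 0.0578, adjusted p = 0.00123). TBCC (-0.64, limma adjusted p = 4.94e-06) and TBCA (-0.40, 0.000514) fell, and TBCB gave -0.06 (0.465) but passed without DMSO replicate 1 (-0.12, 0.0401). ARL2, a small GTPase bound by TBCD, gave -0.28 (limma adjusted p = 0.0206) with overlapping groups, and its call was lost without DMSO replicate 2 (0.0747), BRL-50481 replicate 1 (0.09) or BRL-50481 replicate 3 (0.0688), with quantile normalization (0.0744) and without the trend (0.117).

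Other chaperones also fell, many of them further than the ring. Of all genes tested, 29.8% were lower. HSPD1, the chaperonin of the mitochondrial matrix, had a log2 fold change of -0.43 (SE 0.0414, limma adjusted p = 1.65e-06), close to that of CCT2. Its lid HSPE1 went from 2419 ± 194 to 839.5 ± 15.3 normalized counts, a log2 fold change of -1.52 (SE 0.0665, limma adjusted p = 2.84e-09). All 8 genes of a heat shock list fell, with a median of -1.29, among them HSPA8 (-2.36), HSPA1B (-2.69), HSP90AA1 (-1.10) and HSP90AB1 (-0.43). Relative to the ring mean, 7 of these 8 and 1 of the 2 mitochondrial genes were lower, beside 6.43% of all genes. The part of these changes in the lower ring transcripts was not tested.

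**Figure D4:**
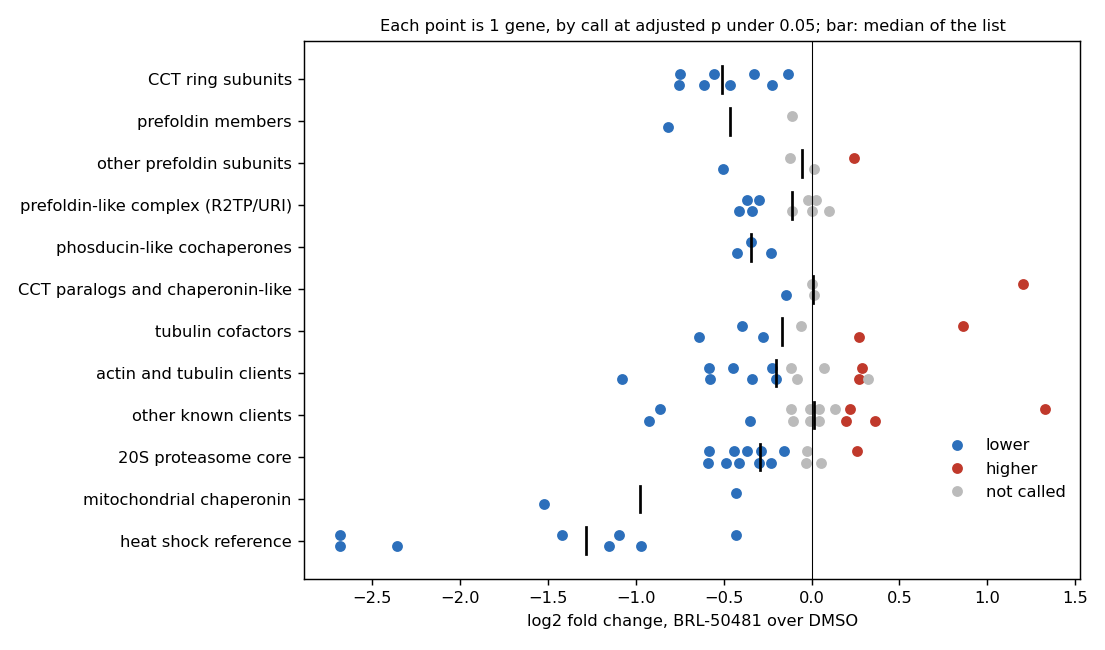
Log2 fold change of BRL-50481 over DMSO (horizontal axis) for each gene of the ring, prefoldin, partner, client and reference lists (rows); blue points were lower and red points higher at an adjusted p under 0.05, grey points were not called, and bars are list medians. The 8 ring subunits and the 8 heat shock genes are all lower, with medians of -0.51 and -1.29, while clients fall on both sides of 0.

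The plot of lists shows the ring between the heat shock genes and the 20S proteasome core, another ring-shaped complex with fixed stoichiometry. Of the 14 core subunits, 10 fell, 1 rose and 3 did not pass, with a median of -0.29 and log2 fold changes from -0.59 (PSMA7) to 0.26 (PSMA1). Among all genes tested, 29.8% were lower and 28.9% higher. In both complexes the log2 fold changes differed among subunits that are assembled in equal number. The proteasome subunits were not tested against each other. Among genes at least as abundant as the lowest ring subunit, 81.3% of pairs had log2 ratios that did not overlap between the groups.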

How the data were processed

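RNA-seq of 3 DMSO and 3 BRL-50481 libraries was analysed from 1 table, with samples grouped by their labels. According to the Methods and the submitters' processing notes, the authors aligned reads to hg38 with STAR 2.7.1a, counted them per gene with HTSeq on the UCSC annotation and normalized them with DESeq2 1.28. The deposited signal is thus a count of reads scaled by the size factor of its library, and a column of the authors' means over all libraries was not used. The deposited log2 fold changes, test scores and p-values are the authors' own comparison and were not used. Every column of values per sample was used.

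After adding 1, log2 normalized counts were fitted with the group as the only term in limma 3.58.1 (R 4.3.3), with a trend of the prior variance on the mean level. Values were taken as normalized signal, and reads per library were recovered only to give the depth (tolerance 0.001 of a read). Count-based tests were not run, and the fixed plan had listed them as alternatives. Shares were tested with exact permutation tests over every split of the 6 libraries into 3 and 3 (Python 3.11.15, numpy 2.4.6). Intervals beyond the SD and SE were not computed. Transcript lengths, positions and overlaps came from GENCODE 44 on hg38, not from the annotation that the authors counted on. Of the genes in the table, 90.8% had a length and GC content.

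The genes and lists were chosen with earlier results of these data known. Named genes are the 10 members, all genes of the short partner lists, and, of longer lists, the 3 most abundant and the largest called change in each direction. VIM, CD44 and the other markers were named to check the cell line. The comparison relative to the ring mean was chosen after seeing the data. As alternatives, the fit was repeated with a pseudocount of 0.5 or 4, without a filter, with a minimum mean of 20, quantile normalization, median centring, no trend, a replicate block, a correction for length and GC content (loess, span 0.5), an absolute log2 fold change over 1, and leaving out each library. The fit was tested on simulated data.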

Additional observations from a re-analysis of the deposited data

How the results depend on the processing

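The number of the 10 genes called was 9, and between 8 and 10 in 15 other fits. All were lower. In the comparison reported, 29.8% of all genes tested were lower and 58.7% were called in either direction. The number of all genes called also differed between the fits. Requiring also an absolute log2 fold change over 1 left 0 of the 10 called, with 0 lower, and left 455 lower and 771 higher among all genes. With the replicate number as a block, 9 of the 10 were called. The numbers did not pair the samples, since same-numbered deviations correlated by 0.0157, 0.000299 and -0.0172. The block moved STAT3 past the threshold (limma adjusted p = 0.0339) and changed no other call of a gene named. Among the genes named, signs turned only for genes that had not passed the test in the comparison reported. VBP1 was between -0.031 and 0.043 without 1 library. BBS10 was -0.067 with the length and GC correction and between -0.010 and 0.054 without 1 library. BBS12 was -0.049 with quantile normalization, -0.056 with the length and GC correction and between -0.030 and 0.044 without 1 library. TBCB was 0.034 with the length and GC correction. RUVBL2 was 0.037 with quantile normalization, 0.012 with median centring, 0.055 with the length and GC correction and between -0.059 and 0.017 without 1 library. TUBB was 0.16 with quantile normalization. The cause was not tested. edgeR and DESeq2 on recovered reads were planned and not run. With 3 libraries a group, shares cannot reach an exact p below 0.1.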
